A study of Bos taurus with 15 samples.

Results

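The genes described here encode proteins of the spermatid head, its neck and its actin-based cytoskeleton, together with other spermatid proteins of the acrosome, the sperm membrane and the midpiece. They are a list of 30 gene names grouped by known function, and the rule that picks their probes uses no measured difference. The array held a matched probe for 25 of them, out of 15075 genes with a probe. Of these, 23 had a probe well above background on at least 7 arrays of a group and were tested, out of 12822 genes tested. No probe was matched to PLCZ1, the sperm phospholipase that activates the egg, or to TXNDC8, SPATA4, SPEM1 and TMCO5A, and these 5 genes were not analysed here.

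Total RNA of testis tissue taken at slaughter was hybridised to single-colour Agilent arrays, 1 animal per array. The 15 cattle were 8 treated with prednisolone, a synthetic glucocorticoid, at 30 mg per head daily by mouth for 35 days, and 7 controls given none. The labels give no age, breed or genotype for either group, and the series text calls the animals cows although the tissue is testis. The comparison asks which testis transcripts differed with the treatment. Animals are named by their label numbers, prednisolone 25 to 32 and control 17, 18 and 20 to 24.

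A spermatid turns into a sperm by condensing its nucleus, spreading the acrosome over it and building a neck and tail. In mammals the head is shaped against an actin-containing layer beneath the acrosome and the perinuclear theca, a protein capsule between the nucleus and the membranes. The neck joins the head to a midpiece wrapped in mitochondria. Many of the proteins involved are made only in spermatids, often as testis forms of proteins that every cell has, and their messages can be stored for days before they are translated. Because whole tissue was measured, fewer spermatids and less message per spermatid cannot be told apart in any value below.

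Levels are log2 distances from the 75th percentile of an array's signal. They compare animals for 1 probe, not one gene with another. All 23 tested genes were well above background on all 15 arrays and saturated on none. The tissue of the 14 animals other than prednisolone 30 thus held spermatid transcripts. For prednisolone 30 this is not settled, because its scanner values did not match its deposited column. Markers of Sertoli and Leydig cells, the supporting and hormone-producing cells of the testis, were also measured well above background in 12 of 12 and 7 of 7 genes on the 14 arrays other than that of prednisolone 30.

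The libraries of 2 animals stood apart. On the array of prednisolone 30, 36.5% of all probes were well above background, against 82.2% to 89.9% on the other arrays. Its 75th percentile signal was 49.8, against 1220 to 2780 on the others, and its correlation with other arrays was 0.705 to 0.736, against at least 0.962 between any pair of the remaining arrays. Nor did its scanner values follow its own column of the authors' deposited table, with a rank correlation of 0.686 against at least 0.99998 for the other arrays. All 23 of these genes were nevertheless well above background on that array, against 50.03% of all tested genes. Control 17 had an ordinary share of probes well above background, 87.7%. Its highest correlation with any other array was 0.976, against at least 0.989 for each remaining array other than that of prednisolone 30. It had low levels of most spermatid genes, and it was below every other control in 35.2% of all tested genes. Results are therefore given with and without these 2 animals.

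None of the 23 genes passed the threshold when prednisolone testis was set against control testis. With limma over the whole table, 0 of 23 had an adjusted p under 0.05, where 0% of all 12822 tested genes passed, and the smallest adjusted p among the 23 was 0.885. Counted by an unadjusted p under 0.05, they were also 0 of 23, against 338 genes or 2.64% of all tested. In 20 genes the mean was higher in treated animals and in 3 it was lower. The median difference over the 23 genes was 0.17 (log2, prednisolone minus control), against -0.0005 over all tested genes, and 49.9% of all tested genes had higher values. The levels of treated and control animals overlapped in all 23 genes, also with prednisolone 30 and control 17 left out.

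On the scanner values the excess of higher values was smaller without control 17, whether prednisolone 30 was kept or left out. With prednisolone 30 kept, all 23 differences were lower once control 17 was left out. There 15 genes had higher and 8 lower means, and the median difference was 0.05. By limma 0 genes had an unadjusted p under 0.05, against a background of 2.36%. Without prednisolone 30 the counts were 21 and 2, the median difference was 0.27, and FSCN3 alone had an unadjusted p under 0.05, against a background of 4.24%. Without both animals they were 19 and 4 with a median of 0.15. In that fit FSCN3 and SPATA16 had an unadjusted p under 0.05 by limma, 2 of 23 genes against 5.13% of all tested. In the authors' deposited table without control 17 the counts were 20 and 3 with a median of 0.14. No gene of the 23 had an adjusted p under 0.05 in any of these fits, where the share of all tested genes was also 0%.

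**Figure D1:**
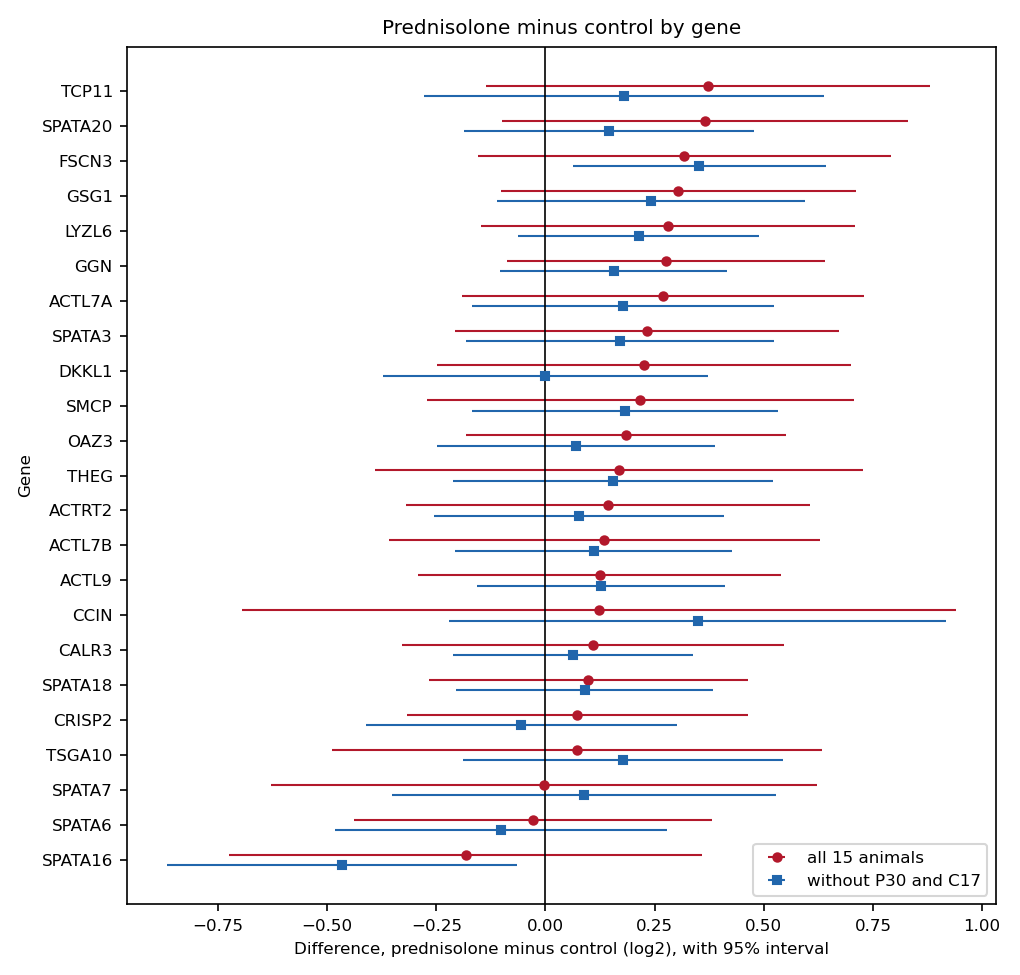
Difference in level between prednisolone and control testis for each of the 23 tested genes, in log2 units with 95% intervals from limma. Circles use all 15 animals and squares leave out prednisolone 30 and control 17. All intervals over 15 animals include 0, and without the 2 animals those of FSCN3 and SPATA16 do not.

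Among the actin-related and cytoskeletal genes, 6 of 7 were tested. All 6 had higher means in treated animals, by 0.12 to 0.32, with a median difference of 0.14, and 0 passed the threshold. Without control 17 the count was 4 higher and 2 lower, with a median of 0.03. These genes encode actin-like and actin-related proteins, an actin-bundling protein and a protein of the perinuclear theca.

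FSCN3, the testis form of the actin-bundling protein fascin, had the smallest unadjusted p of the 23 genes once prednisolone 30 was left out, and it is described at length for that reason, chosen after its values were seen. Its level was 3.44, 3.52, 3.50, 3.88, 4.0, 2.43, 3.38 and 3.79 in prednisolone animals 25 to 32, in that order. In controls 17, 18, 20, 21, 22, 23 and 24 it was 2.48, 3.55, 3.15, 3.42, 3.22, 3.47 and 2.94. The lowest animal of each group was the one that stood apart, prednisolone 30 and control 17, and the 2 groups overlapped. Over 15 animals the difference was 0.32 (95% interval -0.15 to 0.79, unadjusted p = 0.174 by limma). Without prednisolone 30 it was 0.47 (0.12 to 0.82, unadjusted p = 0.0117, adjusted p = 0.964 by limma).

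Without both animals FSCN3 averaged 3.64 ± 0.24 (SD, n = 7) in treated and 3.29 ± 0.23 (SD, n = 6) in control animals. All 7 treated animals lay above the mean of the 6 controls. The difference of 0.35 had a 95% interval of 0.06 to 0.64 and an adjusted p of 0.913 by limma. In the authors' deposited table, tested in the same way on log2 values, the difference was 0.42 with an unadjusted p of 0.0020 and an adjusted p of 0.837 by limma. On the scanner values it was 0.18 (95% interval -0.73 to 1.08) with slide as a block and both animals kept, and 0.20 without control 17 alone. On slide 1 prednisolone 25 and 26 were at 3.44 and 3.52, against 2.48 and 3.55 in controls 17 and 18. On slide 4 prednisolone 29 and 30 were at 4.0 and 2.43, against 3.47 in control 23. In control 17 FSCN3 stood at -0.81 relative to the mean of the other controls. Of the other fascins FSCN1 stood at 0.84 and FSCN2, known from the retina, at -1.05.

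CCIN encodes calicin, a basic protein of the perinuclear theca. It varied more between animals than any other tested gene of the 23, with an SD of 0.79 over 15 animals. The lowest, median and highest levels were -1.86, 0.48 and 1.14 in treated animals, against -0.93, 0.06 and 0.84 in controls. Prednisolone 30 was at -1.86 and control 22 at -0.93, while every other animal lay between -0.33 and 1.14. The difference was 0.12 (95% interval -0.69 to 0.94). It was 0.42 without prednisolone 30, 0.05 without control 17 and -0.05 without control 22. Slides 1 and 4 held both groups, slide 1 with controls 17 and 18 and prednisolone 25 and 26, and slide 4 with control 23 and prednisolone 29 and 30. Every other slide held 1 group only, and of the scan days only day 1 held both. Fits with slide or scan day as a block therefore compare the groups within these alone. Within slide 1 CCIN was higher in both treated animals, at 0.38 and 0.79, than in both controls, at -0.33 and -0.12, a difference of 0.81 with an adjusted p of 0.965 by limma.

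The actin-like proteins ACTL7A, ACTL7B and ACTL9 and the actin-related protein ACTRT2 lie around the acrosome and in the theca, and loss of ACTL7A or ACTL9 function is known to loosen the acrosome from the nucleus in mouse or human sperm. ACTL7A had a lowest, median and highest level of 4.31, 4.69 and 5.2 in treated animals, against 3.55, 4.52 and 5.14 in controls. For ACTL7B these were 4.16, 5.21 and 5.47 against 4.0, 5.01 and 5.53. For ACTL9 they were 2.85, 3.64 and 4.09 against 2.85, 3.44 and 3.90, and for ACTRT2 4.25, 4.84 and 5.46 against 3.80, 4.85 and 5.26. The controls' lowest value in each of these 4 genes was that of control 17, and prednisolone 30 was the lowest treated animal in all 4. Differences ran from 0.12 in ACTL9 to 0.27 in ACTL7A. Without control 17 they were 0.11 in ACTL7A and 0.01 in ACTL9, and ACTL7B and ACTRT2 changed sign, to -0.02 and -0.01. ACTL7B and ACTL7A are next to each other in assembly ARS-UCD2.0.

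CAPZA3, the spermatid form of the alpha subunit that caps actin filaments, could not be compared. The scanner software placed its probe well above background on 1 of 8 treated arrays, that of prednisolone 27, and on 0 of 7 control arrays. The dim signal gives only an upper bound, so no difference is stated. The subunits that other cells use, CAPZA1, CAPZA2 and CAPZB, were tested.

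**Figure D2:**
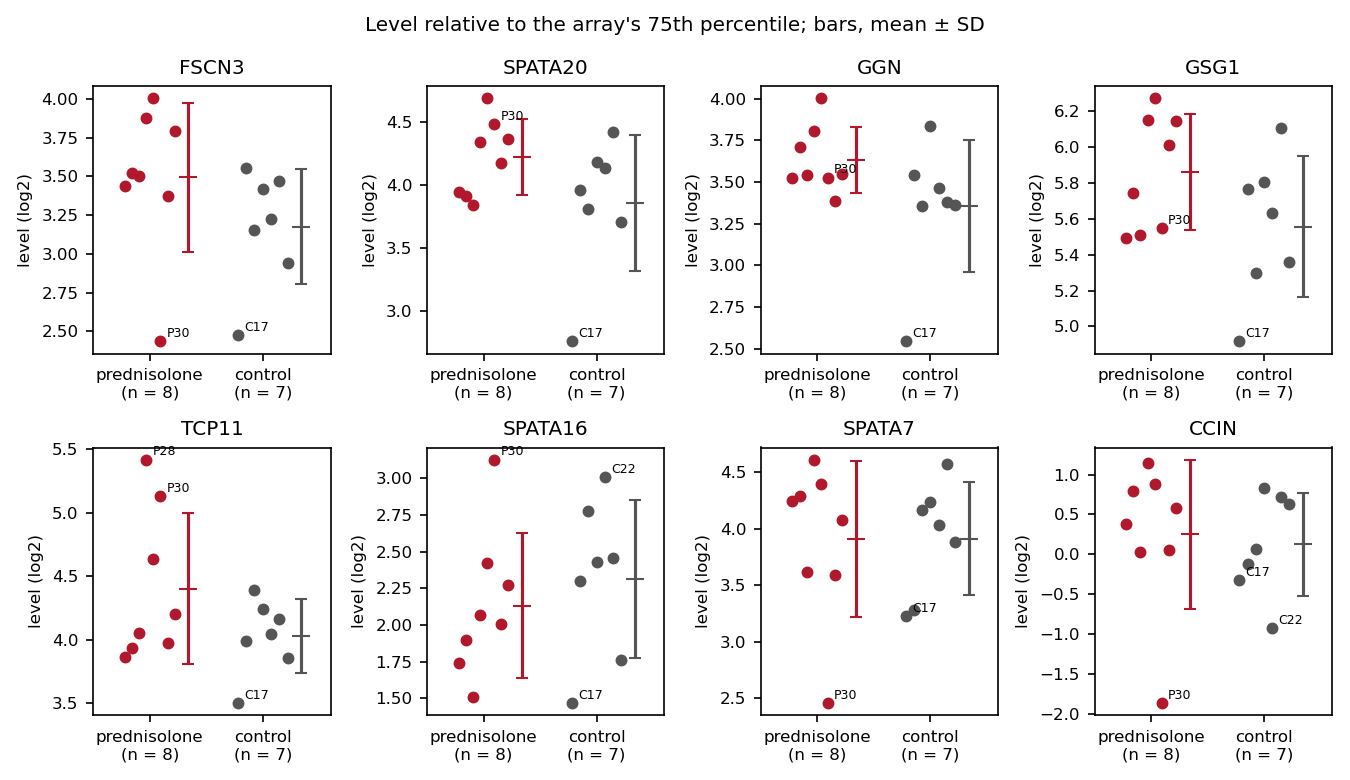
Level of 8 genes in each animal, as log2 distance from the 75th percentile of the array, with prednisolone on the left (n = 8) and control on the right (n = 7) in each panel. Points are animals in label order, bars are mean ± SD, and prednisolone 30 and control 17 are named in each panel. Control 17 is the lowest control in all panels except CCIN, and prednisolone 30 is lowest of all 15 animals in FSCN3, SPATA7 and CCIN but highest in SPATA16.

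Of the 7 neck, midpiece and sheath genes, 5 were tested, and 4 had higher and 1 a lower mean in treated animals, with a median difference of 0.10 and 0 past the threshold. SMCP is a cysteine-rich protein of the capsule around sperm mitochondria. Its lowest, median and highest levels were 4.09, 4.98 and 5.48 in treated animals, against 3.78, 4.78 and 5.27 in controls, a difference of 0.22 (95% interval -0.27 to 0.71), or 0.07 without control 17. OAZ3 is the antizyme of spermatids, a regulator of polyamines that in mouse is needed for a firm joint between head and tail. It was at 6.42, 6.86 and 7.09 in treated animals, against 6.04, 6.54 and 7.26 in controls, a difference of 0.19, or 0.09 without control 17. In control 17 OAZ3 stood at -0.70 relative to the mean of the other controls. OAZ1, the antizyme of most cells, stood at 0.21, and OAZ2, well above background on 5 of 7 control arrays, at -0.52.

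SPATA6 is needed in mouse for the connecting piece at the neck. It had 5.71, 6.11 and 6.49 as lowest, median and highest level in treated animals, against 5.58, 6.10 and 6.94 in controls. The highest control was control 23, and the group means of 6.12 ± 0.30 (SD, n = 8) in treated and 6.15 ± 0.42 (SD, n = 7) in control animals differed by -0.03. A second probe described as SPATA6 differed by 0.15, so the 2 probes did not share a sign. SPATA18, a mitochondrial quality-control protein, lay between 3.26 and 4.17 in treated animals, against 3.18 to 3.96 in controls. It differed by 0.10 on the probe with the higher signal, or 0.02 there without control 17, and by -0.02 on the other.

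TSGA10 lies in the sheath and neck of the sperm tail, and its loss in humans gives sperm tails without heads. Its lowest, median and highest levels were 0.34, 1.99 and 2.28 in treated animals, against 1.09, 1.61 and 2.21 in controls. Prednisolone 30 held the lowest level, and the next treated animal was at 1.23. The difference was 0.07 over 15 animals and 0.27 without prednisolone 30, against -0.02 without control 17. SPATA19, a protein of the mitochondrial sheath in mouse, was not well above background on any of 8 treated or 7 control arrays.

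Among the acrosome, membrane and fertilisation genes, 6 of 8 were tested, with 5 higher and 1 lower in treated animals and a median difference of 0.17. SPATA16 is a Golgi protein of the forming acrosome, and its loss in humans gives round-headed sperm without one. Its level was 1.74, 1.90, 1.51, 2.07, 2.42, 3.13, 2.01 and 2.27 in prednisolone animals 25 to 32, in that order. In controls 17, 18, 20, 21, 22, 23 and 24 it was 1.47, 2.30, 2.78, 2.43, 3.00, 2.45 and 1.76. Prednisolone 30 was the highest animal of all 15 and control 17 the lowest, so leaving them out widened the difference between the groups.

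Over 15 animals SPATA16 differed by -0.18 (95% interval -0.72 to 0.36). Without prednisolone 30 and control 17 it averaged 1.99 ± 0.31 (SD, n = 7) in treated and 2.45 ± 0.43 (SD, n = 6) in control animals, a difference of -0.47 (95% interval -0.87 to -0.06, adjusted p = 0.913 by limma). Then 0 of 7 treated animals lay above the mean of the 6 controls. In the authors' deposited table the difference was -0.34 over all animals (unadjusted p = 0.0730, adjusted p = 0.837 by limma). A block for slide gave 0.09 and a block for scan day 0.17, both with prednisolone 30 kept. Within slide 1, which did not hold that animal, it was -0.07. The second probe carrying the gene number of SPATA16, which the files describe as another gene, differed by 0.31 over 15 animals and by -0.03 without the 2 animals.

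TCP11, which in mouse acts in sperm motility and capacitation, had the largest difference of the 23 genes over 15 animals, at 0.37 (95% interval -0.14 to 0.88). It was 0.23 without prednisolone 28, 0.18 without prednisolone 30 and control 17, and 0.07 with array weights. Its level was 3.86, 3.94, 4.05, 5.42, 4.63, 5.13, 3.98 and 4.20 in prednisolone animals 25 to 32, in that order. Controls 17, 18, 20, 21, 22, 23 and 24 had 3.50, 3.99, 4.39, 4.25, 4.05, 4.17 and 3.86. Prednisolone 28, 29 and 30 lay above every control and the other 5 treated animals lay within the range of the controls. On a second probe described as TCP11, prednisolone 28 was at 1.14, close to prednisolone 29 at 1.1, prednisolone 31 at 1.08 and control 23 at 1.08, while prednisolone 30 was highest at 1.69. The second probe differed by 0.28 over 15 animals and by 0.02 without prednisolone 30 and control 17.

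DKKL1 is a secreted protein of the acrosome. It had 5.73, 6.5 and 7.38 as lowest, median and highest level in treated animals, against 5.68, 6.36 and 6.84 in controls. Its highest level was that of prednisolone 30, and the difference of 0.23 was -0.0002 without that animal and control 17. LYZL6 is a lysozyme-like protein of the sperm head, with levels of -0.08, 0.54 and 0.95 in treated animals, against -0.68, 0.34 and 0.55 in controls. The 6 controls other than control 17 lay between 0.26 and 0.55, a narrow range, and 6 of the 7 treated animals other than prednisolone 30 were above their mean. CALR3, the testis form of the chaperone calreticulin, lay between 4.23 and 5.26 in treated animals, against 3.94 to 5.32 in controls. It differed by 0.11, and by -0.04 without control 17. CRISP2, a cysteine-rich protein of acrosome and tail, lay between 4.43 and 5.31 in treated animals, against 4.36 to 5.34 in controls. It had the smallest gap in control 17 and differed by 0.07, by 0.01 without control 17 and by -0.06 without prednisolone 30 and control 17.

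Of the 8 other spermatid and testis genes, 6 were tested. In these 5 had higher and 1 a lower mean, the median difference was 0.25, and 0 passed the threshold. SPATA20 holds a thioredoxin-like domain, and its function in the testis is little known. Its lowest, median and highest levels were 3.84, 4.25 and 4.69 in treated animals, against 2.76, 3.96 and 4.42 in controls. Control 17 was at 2.76 and the next control at 3.7. The difference of 0.37 had the smallest unadjusted p of the 23 over 15 animals, 0.116 by limma, and was 0.18 without control 17.

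GGN, gametogenetin, is a germ cell protein that interacts with DNA repair proteins in mouse. It was at 3.39, 3.55 and 4.0 in treated animals, against 2.54, 3.38 and 3.84 in controls. All 8 treated animals lay above the mean of the 7 controls, and the difference was 0.28 (95% interval -0.09 to 0.64, unadjusted p = 0.128 by limma), or 0.14 without control 17. GSG1 was named for its germ cell expression and binds a testis poly(A) polymerase in mouse. It was at 5.49, 5.88 and 6.27 in treated animals, against 4.92, 5.63 and 6.11 in controls, a difference of 0.30 (unadjusted p = 0.132 by limma), or 0.20 without control 17.

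SPATA7 is known from photoreceptors, where it lies at the base of the connecting cilium. Its lowest, median and highest levels were 2.46, 4.16 and 4.61 in treated animals, against 3.23, 4.03 and 4.57 in controls. Prednisolone 30 was lowest, and controls 17 and 18, both on slide 1, were at 3.23 and 3.28. The difference was -0.004 over 15 animals and 0.20 without prednisolone 30. Within slide 1, prednisolone 25 and 26 were at 4.24 and 4.29, a difference of 1.01 from these controls with an adjusted p of 0.965 by limma. THEG, a spermatid protein, was at 1.54, 2.67 and 3.52 in treated animals, against 1.45, 2.48 and 3.03 in controls. Its difference was 0.17, and -0.0006 without control 17. SPATA3 lay between 4.75 and 5.77 in treated animals, against 4.21 to 5.66 in controls, and differed by 0.23, or by 0.10 without control 17.

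In the authors' deposited table, 5 of the 23 genes had an unadjusted p under 0.05, against 5.62% of all tested genes, and all 5 had higher values in treated animals. They were FSCN3, GSG1, SMCP, GGN and SPATA3, with differences of 0.42, 0.28, 0.32, 0.28 and 0.24. Without control 17 this set was FSCN3, GSG1 and SMCP, and SPATA16 with a lower value, 4 of 23 against 6.08% of all tested genes. No adjusted p of the 23 was under 0.05 in that table, where the smallest was 0.837 by limma over all animals.

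The widest pattern in these genes was the low level in control 17. It lay below every other control in 22 of the 23 genes, where the share of all tested genes was 35.2%, and was lowest of all 15 animals in 18. The single exception among controls was CCIN, in which control 22 was lower. Relative to the mean of the other 6 controls its level was lower in 23 of 23 genes, by a median of -0.81 on the log2 scale, or 0.569 times their mean level. The gap ran from -0.46 in CRISP2 to -1.28 in SPATA20. Over all tested genes the median gap was -0.14, with 58.6% lower. In the deposited table control 17 was below every other control in 18 of the 23 genes.

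**Figure D3:**
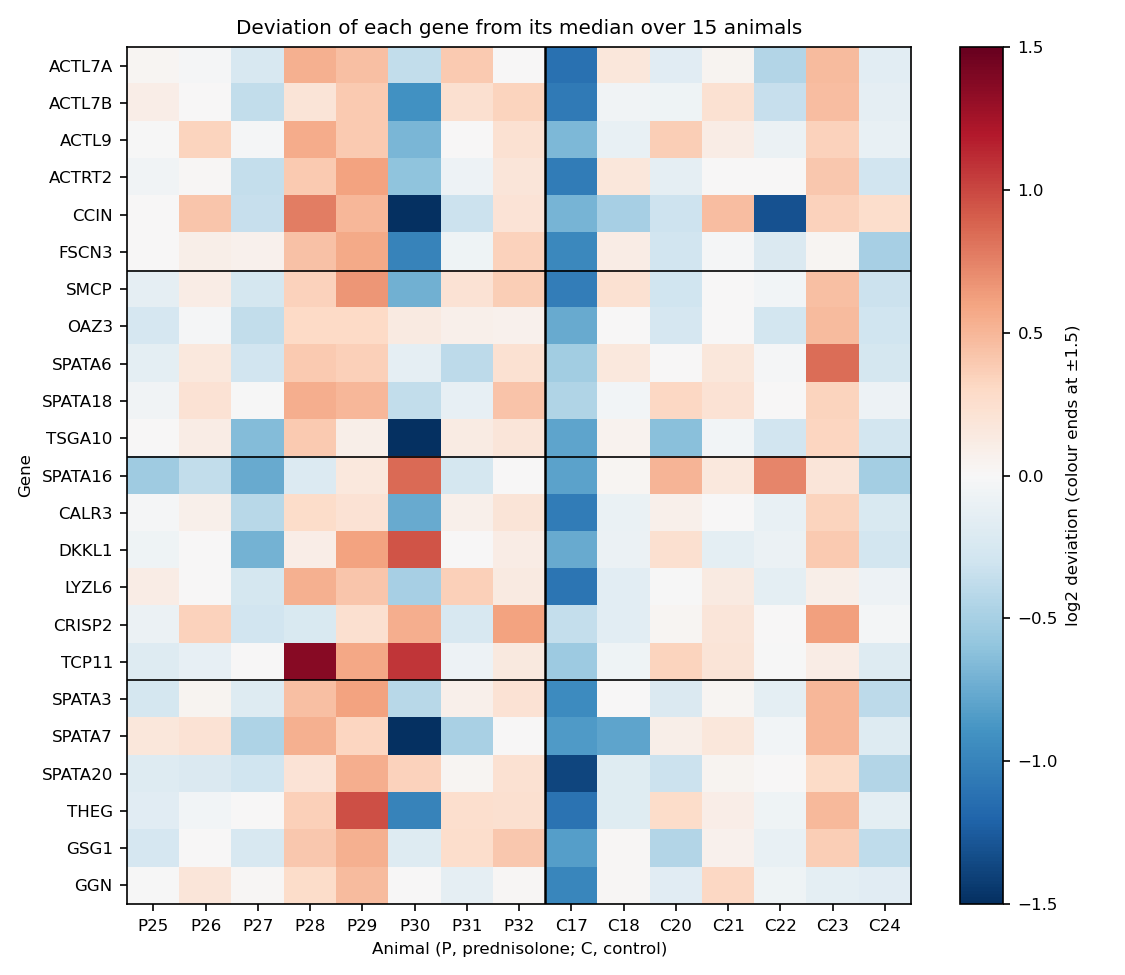
Deviation of each of the 23 genes from its own median over 15 animals, in log2 units, blue for lower and red for higher, with the colour scale ending at ±1.5. Columns are animals, 8 prednisolone on the left and 7 control on the right, and lines part the 4 groups of genes. The column of control 17 is blue in all 23 genes, and that of prednisolone 30 is mixed.

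The gap in control 17 was of similar size in the 4 groups of genes, with medians of -0.95 in the actin-related, -0.67 in the neck and midpiece, -0.87 in the acrosome and membrane and -0.93 in the other spermatid genes. It was shared by spermatid genes outside the 30. Of 34 other spermatid and sperm genes tested, 33 were lower in control 17 than the mean of the other controls, with a median gap of -0.83. Of 20 further head-shaping and coupling genes 18 were lower, with a median of -0.77. Of 14 genes of meiotic germ cells 13 were lower, with a median of -0.51. Of 6 genes of spermatogonia 4 were lower, with a median of -0.36, where 58.6% of all tested genes were lower with a median of -0.14.

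As a list, relatives of these genes that somatic cells also use did not share it, though single genes went either way. Of 21 such relatives tested, 9 were lower and the median gap was 0.21. The probe read there for CRISP3, by its gene number, is the one that the files describe as CRISP2. Without it 8 of 20 were lower. ACTB, the actin of most cells, stood at 0.67, and the actin-nucleating subunits ACTR2 and ACTR3 stood at 0.74 and 0.97. The actin ACTG1 and the capping subunit CAPZB stood at 0.02 and -0.02. CAPZA1 stood at -0.45, CAPZA2 at 0.39 and calreticulin, CALR, at -0.19. The relative with the lowest gap, LYZL4 at -1.12, is itself a sperm lysozyme-like protein.

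Markers of some other cells were higher in control 17. Control 17 was above the mean of the other controls in 6 of 6 smooth muscle and myoid genes, by a median of 1.79, or 3.45 times, with the contractile actin ACTA2 at 1.80 and TAGLN at 1.94. The log2 of the summed linear signal of these 6 genes was 3.73 to 4.90 in treated animals and 3.93 to 5.83 in controls, with control 17 at 5.83 and the next control at 4.71. Endothelial genes were higher in 4 of 5 and macrophage genes in 4 of 5, with medians of 1.41 and 1.27. Sertoli genes were lower in 5 of 12 and Leydig genes in 4 of 7, with medians of 0.28 and -0.07. Their part in the low spermatid genes was not tested.

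**Figure D4:**
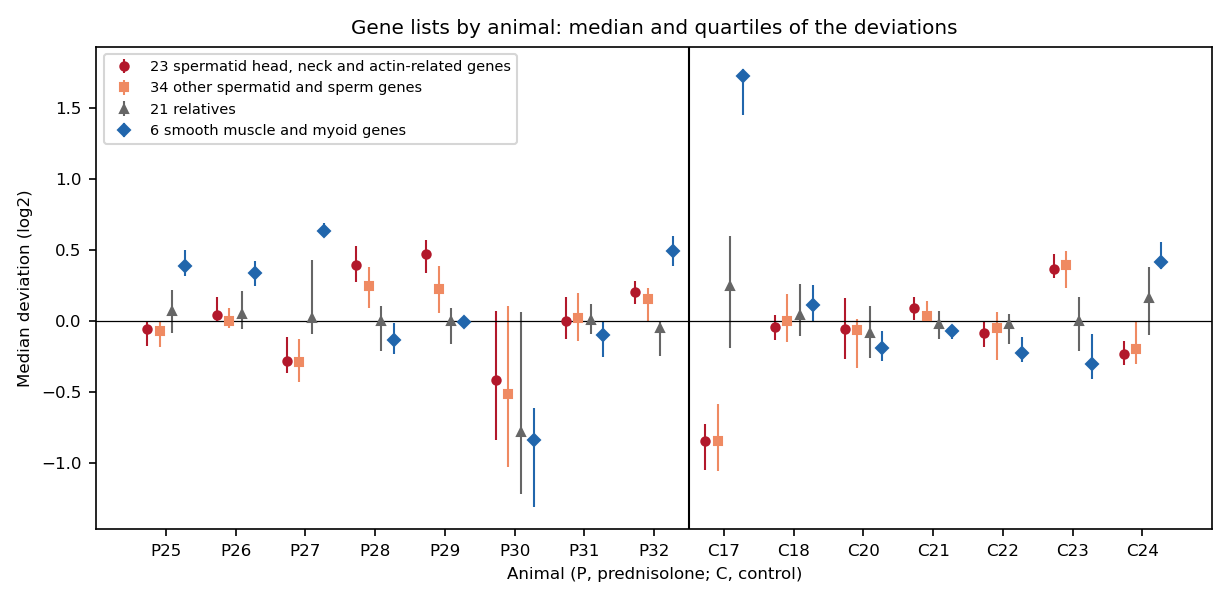
Median deviation from each gene's median over 15 animals, by animal, for 4 gene lists, in log2 units, with bars for the quartiles over genes. Prednisolone animals are on the left and controls on the right. Control 17 has both spermatid lists at about -0.85, its smooth muscle list at 1.72 and its relatives at 0.24.

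Prednisolone 30 differed from the other treated animals in another way. Its level was below their mean in 17 of 23 genes, with all 6 actin-related genes lower, by a median of -0.97, against 2 of 6 acrosome and membrane genes. Of all tested genes 55.7% were lower in it, and so were 11 of 12 Sertoli genes, 6 of 6 smooth muscle genes and 15 of 21 relatives. Leydig genes were lower in 3 of 7, endothelial genes in 2 of 5, macrophage genes in 3 of 5 and epididymis genes in 0 of 3. Only 50.03% of all tested genes and 6 of 12 Sertoli genes were well above background on its array, so many of these values were dim. Among the acrosome and membrane genes SPATA16 stood at 1.14, DKKL1 at 0.93 and TCP11 at 0.83 relative to the other treated animals. In its deposited column, which did not match the scanner file, prednisolone 30 was lowest of the 15 animals in 0 of 23 genes and had a median deviation of 0.

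Other animals deviated in most of the 23 genes as well. The median deviation from each gene's median was -0.41 in prednisolone 30 and -0.85 in control 17. Among the remaining animals it was highest in prednisolone 29 at 0.48, prednisolone 28 at 0.40 and control 23 at 0.36. It was lowest in prednisolone 27 at -0.28 and control 24 at -0.23. All 23 genes were above their median in prednisolone 29, and 22 were below it in control 24. Prednisolone 31 was mixed, with 10 below and 11 above. Prednisolone 28 held the highest level of the 15 in 8 genes, prednisolone 29 in 8 and control 23 in 5. Prednisolone 29 and control 23 shared slide 4. Prednisolone 27 and prednisolone 28 were each the only animal of their slide and scan day, so animal and slide cannot be told apart there. The spread in controls was 0.42 as the median SD of the 23 genes (n = 7), against 0.33 over all tested genes, and 0.27 without control 17 (n = 6), against 0.27. In treated animals it was 0.38 (n = 8), against 0.48 over all tested genes, and 0.31 without prednisolone 30 (n = 7), against 0.26.

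The pathway around these genes did not pass the threshold either. In all 11 comparison lists 0 genes had an adjusted p under 0.05. Of the 34 other spermatid and sperm genes 24 had higher and 10 lower means in treated animals, with a median difference of 0.08. Without control 17 these were 16 and 18 with a median of -0.05. The smallest unadjusted p there belonged to GAPDHS, the glycolytic enzyme of the sperm tail, with a difference of 0.59, and TNP2, a transition protein of the condensing nucleus, with 0.40. Relative to the mean of the other controls, control 17 stood at -1.28 in GAPDHS and -0.95 in TNP2. Relative to the other treated animals, prednisolone 30 stood at 0.94 in GAPDHS and -0.62 in TNP2. GAPDHS was not well above background on the array of prednisolone 30. Of the 20 further head-shaping and coupling genes 13 were higher, with a median of 0.10 and SPAG4 and CSNK2A2 at 0.34 and 0.20. Control 17 stood at -0.92 in SPAG4 and -0.41 in CSNK2A2, and prednisolone 30 at -0.26 and -0.27. Of the 21 relatives 8 were higher, with a median of -0.07 and TXN, a thioredoxin, at -0.80, and LYZ at -0.47. In TXN control 17 stood at 0.61 and prednisolone 30 at -1.16, and in LYZ at 1.14 and 0.62. LYZ was not well above background on the array of prednisolone 30.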

How the data were processed

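The deposited scanner files hold spot intensity on a linear scale, which the authors extracted with Feature Extraction 9.5.1.1, per the file headers, as a background-subtracted, detrended signal. The authors' deposited table also holds linear intensity, and no source used here gives how its columns were scaled. The submitters' processing notes name R 2.11.1. Control spots were removed, leaving 42990 spots of 21475 probes, and outlier spots (0.0510%) were masked. The log2 signal was set relative to each array's 75th percentile. A probe was tested when well above background on at least 7 arrays of either group (17411 probes), and where a gene had several probes the one with the highest mean over the arrays was used. Probes took their names from the files' identifiers and descriptions and from a RefSeq table (assembly ARS-UCD2.0), which gave 16341 of them a symbol. GGN, THEG, SPATA16 and the SPATA18 probe used were named by description alone.

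The main test was limma 3.58.1 under R 4.3.3, two-sided, with p-values adjusted by Benjamini-Hochberg over all tested probes and a threshold of 0.05. The script was tested on simulated data. Nothing in the labels pairs animals, and the number of arrays limits the precision. All listed genes are named, with fuller values for those with the smallest unadjusted p or the largest spread. Of the 3 related lists nearest in function, the 2 genes with the smallest unadjusted p are named. Members and lists were chosen with earlier results of these data known.

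Alternatives covered scaling, background correction, the deposited table, the filters, slide, scan day, array weights, other probes and each animal left out.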

Additional observations from a re-analysis of the deposited data

Results flagged for a closer look

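Within a group of 7 or 8 animals, a lowest or highest value far from the next one was looked for in 48 groups of levels, and 7 had one. About 2.4 would be expected by chance if the 48 were independent. They were not, because the same animals were read through each gene, so the count cannot be set against chance. All 7 were lowest values and came from the 2 animals that stood apart. Prednisolone 30 was the lowest treated animal in ACTL9 at 2.85, with the next at 3.51, in CCIN at -1.86, with the next at 0.03, and in FSCN3 at 2.43, with the next at 3.38. Control 17 was the lowest control in CALR3 at 3.94, with the next at 4.76, in LYZL6 at -0.68, with the next at 0.26, in THEG at 1.45, with the next at 2.37, and in GGN at 2.54, with the next at 3.36. In the authors' deposited table prednisolone 30 was the lowest of all 15 animals in none of the 23 genes, whereas control 17 was the lowest in 15.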

How the results depend on the processing

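No paired analysis was possible because the groups share no animal numbers. No gene of the 23 and no other gene tested passed the threshold under any of the 30 alternatives, although with array weights 1 probe other than those read for genes passed. Of the 23 genes 5 had in the deposited table an unadjusted p under 0.05 and 720 genes in all. The 2 fits of that table without control 17, and without it and prednisolone 30, were chosen after seeing the data and gave median differences of 0.14 and 0.16. Leaving out each animal gave a median difference between 0.05 (control 17) and 0.27 (prednisolone 30). Under quantile scaling it was 0.11, and all tested genes moved to -0.07 with 39.9% higher, and under normexp it was 0.08 with 62.9% of all genes higher. The count of genes lowest in control 17 among controls was 20 under quantile scaling. Within slide 1, which held only controls 17 and 18 and prednisolone 25 and 26, the median difference was 0.43. Within scan day 1, which held both control 17 and prednisolone 30, it was 0.20.

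Signs changed in 12 of the 23 genes, none of them called, in 45 of 695 alternative values. With slide as a block CCIN was at -0.0007, TSGA10 at -0.16, SPATA16 at 0.089 and SPATA7 at 0.15. A scan day block and scan day 1 alone both gave TSGA10 at -0.035, SPATA16 at 0.17 and SPATA7 at 0.15. Within slide 1 SPATA6 was at 0.19 and SPATA7 at 1.01. Under normexp SPATA18 was at -0.013 and CALR3 at -0.020. In the deposited table CRISP2 was at -0.020 and SPATA7 at 0.17, at -0.026 and 0.11 there without control 17, and at -0.039 and 0.10 without both animals. On the scanner values without both animals DKKL1 was at -0.0002, CRISP2 at -0.055 and SPATA7 at 0.089. With array weights SPATA7 was at 0.15. On their other probes SPATA6 was at 0.15, SPATA18 at -0.024 and SPATA16 at 0.31. Leaving out single animals, for those other than prednisolone 30 and control 17 also chosen after seeing the data, gave ranges of -0.020 to 0.26 in ACTL7B, -0.011 to 0.23 in ACTRT2, -0.052 to 0.42 in CCIN, -0.12 to 0.10 in SPATA6, -0.021 to 0.27 in TSGA10, -0.038 to 0.21 in CALR3, -0.12 to 0.20 in SPATA7 and -0.0006 to 0.32 in THEG. The low end was without control 17, except in CCIN without control 22, and the high end without prednisolone 30, except in ACTRT2 and SPATA6 without control 23. The cause of these changes was not tested.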
